A study of Danio rerio with 6 samples.

Results

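The genes described here are those of the proteasome, taken as every gene ID whose symbol in the deposited comparison table starts with psm, a letter from a to g, and a digit. The rule found 54 gene IDs, against 19364 gene IDs listed with a value in the series as a whole. They comprise 21 genes of the 20S core, 25 genes of the regulatory particles, 6 assembly chaperones, the inhibitor gene psmf1, and psmc3ip, which carries the prefix but encodes a recombination cofactor and no proteasome subunit. Of the 54, 46 had a value in at least 1 library, 44 in all 6 libraries, and 45 passed the filter of at least 1 FPKM (fragments per kilobase of transcript, scaled to library size) in at least 3 libraries.

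RNA was sequenced from intact zebrafish embryos, 3 days post fertilisation, in 3 wild-type libraries and 3 libraries of csf1ra-/- embryos. Apart from the anaesthetic named next, the wild-type samples carry no other allele or agent in the labels. The mutation was made with CRISPR/Cas9, and both groups were given the anaesthetic MS-222 at collection. The labels give neither the number of founder lines nor whether libraries came from separate clutches, so the tests rest on the spread among these libraries, some of which may be technical. Because every tissue was pooled, fewer cells of a type and less RNA per cell cannot be told apart.

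The proteasome degrades proteins that carry ubiquitin chains. Its barrel-shaped 20S core is built of outer rings of alpha subunits, which gate the channel, and inner rings of beta subunits, of which PSMB5, PSMB6 and PSMB7 cut peptide bonds. The 19S regulatory particle binds the ubiquitin chain, removes it, and unfolds the substrate with a ring of ATPases, while other activators open the core without ubiquitin. Alternative beta subunits replace the catalytic ones in immune cells, and dedicated chaperones assemble each particle. The roles given here are those of the mammalian and yeast proteins.

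Each library listed 17291 to 17653 genes, and read totals were not used here, so the depth behind a value is unknown. csf1ra, the targeted gene, stood at 4.54, 4.08 and 3.72 FPKM in wild type, was not listed in mutant replicates 1 and 2, and stood at 0.563 FPKM in mutant replicate 3. It fell in the mutants (log2 fold change -2.14, SE 0.22, limma adjusted p = 0.00284, with unlisted values taken as 0). It passed the filter through the wild-type libraries alone, and with a pseudocount of 0.1 its log2 fold change was -4.48. Markers of many tissues were listed at high levels, among them the neuronal gene elavl3 and the muscle gene mylpfa. The erythrocyte, heart and macrophage markers hbbe1.1, cmlc1 and mpeg1.1 had no total. Other markers of those cell types, hbae3, myl7 and mfap4, were listed, with wild-type means of 689.5, 20.1 and 7.55 FPKM. For several markers outside the proteasome, such as the pancreatic gene cpa5 at 16.4 FPKM against 35.1 and 34.9, mutant replicate 3 lay nearest to the wild type.

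Proteasome genes were expressed at moderate and steady levels. The median of mean FPKM was 39.4 over the 44 members listed in all 6 libraries, against 6.45 over the 15015 tested genes so listed. Over the 6 libraries the median coefficient of variation was 6.55% for these members. It was 15.2% for these 15015 genes, which are on the whole lower expressed. For other large complexes it was 4.4% (chaperonin CCT), 6.1% (COP9 signalosome), 7.2% (eIF3) and 7.8% (cytosolic ribosomal proteins). The steadiness is thus not particular to the proteasome. The 14 core and 22 regulatory genes listed in all libraries together held 0.470%, 0.485% and 0.479% of the summed FPKM in wild-type replicates 1, 2 and 3. In mutant replicates 1, 2 and 3 they held 0.472%, 0.463% and 0.484%. The genotypes overlapped in that share. The plot of levels by library shows most core and 19S genes above most activators, chaperones and the inhibitor, with overlap: the activator psme3, at a mean of 26.4 FPKM, lay above psmd11a, psmd11b and psmd14, and the chaperone psmg3, at 15.2 FPKM, above psmd11a.

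**Figure D1:**
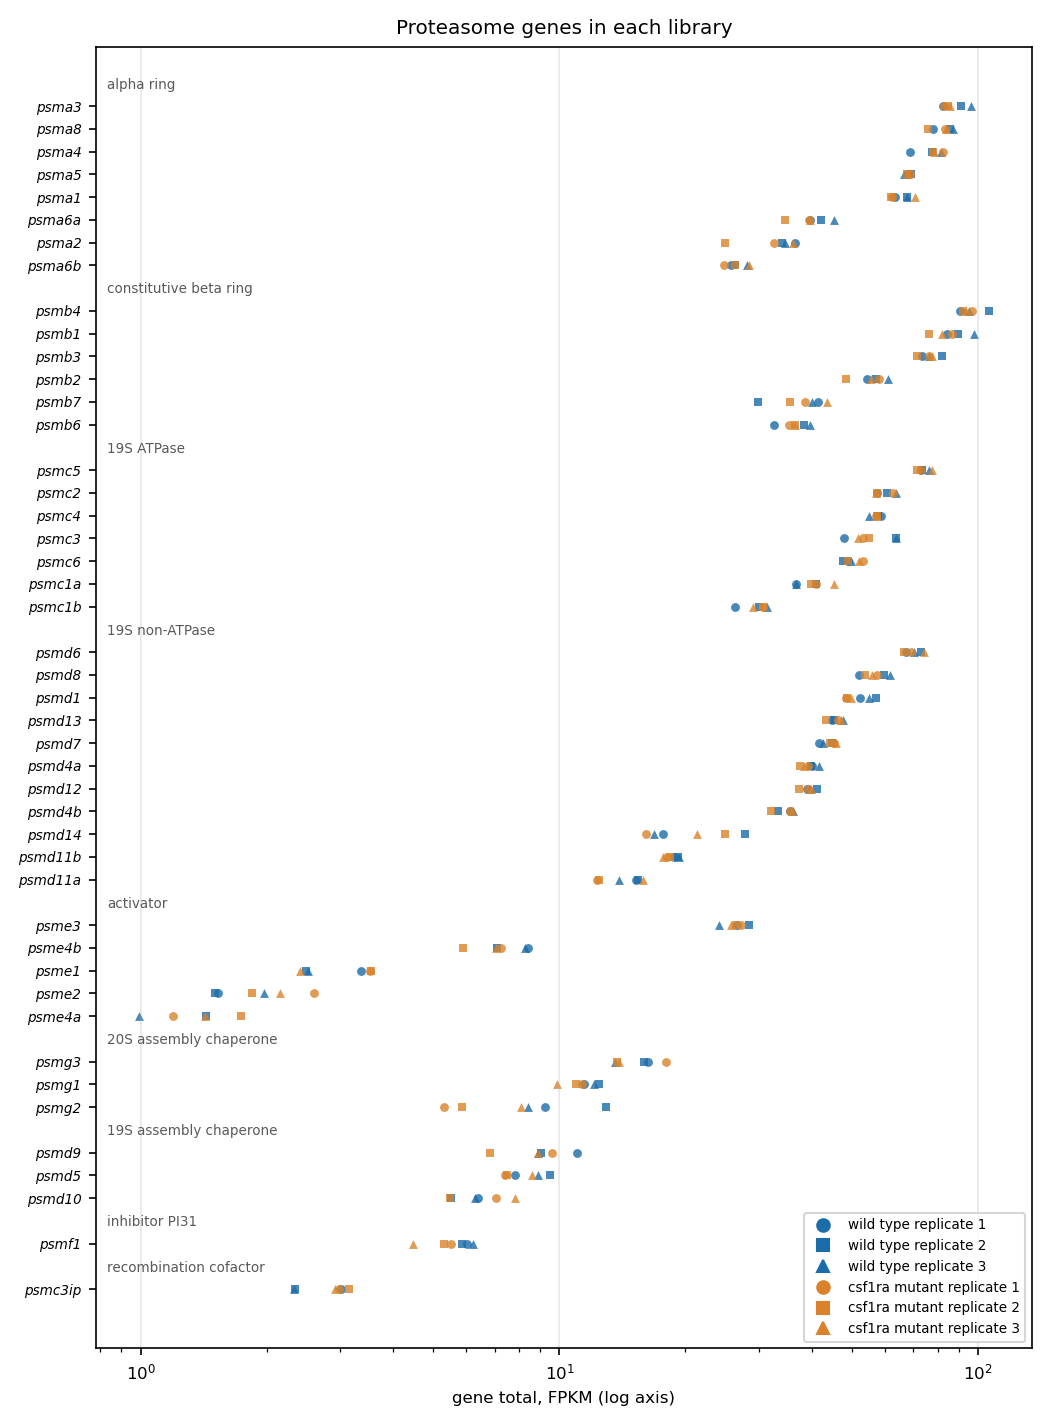
Gene total in FPKM on a log axis for each of the 45 tested members, 1 point per library, with blue for wild type, orange for the csf1ra mutant and a marker shape for each replicate number. Core genes ran from a mean of 26.6 to 95.8 FPKM, and assembly chaperones from 6.42 to 15.2 FPKM.

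Among the alpha subunits, psma3 had the highest mean level and psma6b the lowest. psma3 stood at 82.4, 91.1 and 96.4 FPKM in wild type and at 83.0, 84.8 and 85.7 FPKM in the mutants. The mutant values lay inside the wild-type range. psma5 was the steadiest core gene, at 67.8, 69.1 and 66.5 FPKM in wild type and 68.9, 67.7 and 68.1 FPKM in the mutants, a coefficient of variation of 1.40%. psma1, psma4 and psma8 had mean levels of 65.6, 77.8 and 82.3 FPKM. psma6l had no total, although the authors' deposited table holds a tested transcript of it. The RefSeq gene table (assembly GRCz12tu, used for names alone) lists psma7 as an older name of psma8, and no member carries the symbol psma7. psma2 was the core gene with the largest negative log2 fold change, -0.18 (SE 0.13, 95% interval -0.48 to 0.12, limma adjusted p = 0.557). Its values were 36.6, 34.0 and 34.6 FPKM in wild type and 32.5, 24.9 and 36.1 FPKM in the mutants. Mutant replicates 1 and 2 lay below the wild-type range, and mutant replicate 3 lay within it.

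Among the beta subunits, psmb4, a structural subunit, had the highest mean of all members. It stood at 90.7, 106.4 and 95.2 FPKM in wild type and at 96.7, 92.2 and 93.7 FPKM in the mutants, means of 97.5 ± 8.11 and 94.2 ± 2.28 FPKM (SD, n = 3). The other structural subunits psmb1, psmb2 and psmb3 had mean levels of 86.1, 55.7 and 76.2 FPKM. psmb1 stood at 84.3, 89.5 and 97.7 FPKM in wild type and at 86.8, 76.4 and 81.8 FPKM in the mutants. Its groups overlapped (log2 fold change -0.15, SE 0.08, limma adjusted p = 0.442).

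Of the catalytic subunits, psmb6 and psmb7 were lower than these structural subunits. psmb6, which encodes the caspase-like subunit, had a mean of 36.5 FPKM, and psmb7, which encodes the trypsin-like subunit, a mean of 38.2 FPKM. psmb7 stood at 41.4, 29.8 and 40.2 FPKM in wild type and at 38.5, 35.6 and 43.7 FPKM in the mutants, the largest positive log2 fold change of the core at 0.09 (SE 0.14, limma adjusted p = 0.806). Replicate 2 was the lowest library of each genotype for psmb7. psmb5, which encodes the chymotrypsin-like subunit, had no event under its own ID. Its deposited locus (GRCz10 chromosome 2, 38390943 to 38410247) held events filed under another gene ID, named FP015916.2, at 58.9, 69.4 and 67.1 FPKM in wild type and 62.0, 57.7 and 58.7 FPKM in the mutants. That ID, with a log2 fold change of -0.13 (SE 0.08, limma adjusted p = 0.495), was left out of the member counts.

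The alternative beta subunits were nearly absent from the tables. psmb8a, psmb9a, psmb10 and psmb12 share a single deposited locus on GRCz10 chromosome 19, from 7186912 to 7225660. Of these, psmb9a was listed in wild-type replicate 2 alone, at 0.568 FPKM, and the other genes had no total in any library. psmb11b, whose mammalian counterpart acts in the thymus, had no total either, and the authors' deposited table holds no tested transcript for any of the 5 genes. RefSeq gives psmb10 as an older name of psmb13a, and the file's PSMB10 in capitals, on chromosome 4, falls outside the rule and also had no total.

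Other genes of the class I antigen pathway that the inducible subunits serve were measured beside them. That list held 22 symbols, some of which matched no gene ID, and 12 gene IDs had a value in at least 1 library. Of these, 8 were tested, 0 passed limma's test (0 also at an unadjusted p under 0.05), and the median log2 fold change was -0.013 against 0.016 over all genes tested. Over all genes tested, 2.42% passed and 15.9% had an unadjusted p under 0.05, so a count of 0 in so short a list says little. mhc1uba, a class I heavy chain gene, stood at 0.681, 0.598 and 0.786 FPKM in wild type and was listed in no mutant library, too low to be tested. b2m, the class I light chain gene, stood at 2.24, 1.75 and 2.30 FPKM in wild type and at 1.08, 1.50 and 1.77 FPKM in the mutants (log2 fold change -0.34, SE 0.17, limma adjusted p = 0.382), and its groups overlapped slightly. b2ml, a second light chain gene of higher level, stood at 25.7, 24.1 and 26.8 FPKM in wild type and at 31.2, 33.3 and 25.1 FPKM in the mutants, with overlap at mutant replicate 3 (log2 fold change 0.21, SE 0.11, limma adjusted p = 0.413). tapbpl, a peptide-loading gene, was listed in wild-type replicate 2 alone among the wild-type libraries, at 3.58 FPKM, and at 8.54, 9.55 and 0.800 FPKM in the mutants (log2 fold change 1.77, SE 0.85, limma adjusted p = 0.376, with unlisted values taken as 0). Of the 8 tested genes, 4 had positive and 4 negative log2 fold changes. Of 9 interferon signalling symbols, 7 had a value in at least 1 library, 3 were tested and 0 passed, 0 also at an unadjusted p under 0.05. Beside the same shares over all genes, these counts say little as well. Within 2 Mb on either side of the locus that holds psmb8a, psmb9a, psmb10 and psmb12, 11 of 69 tested genes were called by limma, 15.9% against 2.42% of all genes tested. Whether the listing of the inducible subunits moves with that interval was not tested.

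The 7 genes for ATPases of the 19S base had a median log2 fold change of 0.003, from -0.12 for psmc3 to 0.14 for psmc1a. psmc5 was the highest regulatory gene, at 72.9, 73.3 and 76.2 FPKM in wild type and 73.0, 71.3 and 77.7 FPKM in the mutants. psmc4 had a coefficient of variation of 2.08% and a mean of 57.1 FPKM, and psmc2 a mean of 59.7 FPKM. psmc3 stood at 47.7, 63.6 and 63.6 FPKM in wild type and 53.0, 54.8 and 51.7 FPKM in the mutants. Wild-type replicate 1 lay below all mutant libraries and the other wild-type libraries above them. psmc6 stood at 49.0, 47.6 and 49.7 FPKM in wild type and 53.2, 48.9 and 51.9 FPKM in the mutants, with overlap at mutant replicate 2.

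Among the non-ATPase subunits of the 19S particle, 11 of 13 gene IDs had values. psmd1 encodes a large scaffold subunit of the base and was the 19S gene with the largest negative log2 fold change, -0.16 (SE 0.07, 95% interval of the fold 0.806 to 0.997, unadjusted p = 0.0451, limma adjusted p = 0.303). Its totals were 52.1, 57.0 and 54.9 FPKM in wild type and 48.4, 48.5 and 49.8 FPKM in the mutants. Every mutant library lay below every wild-type library in those totals, which come from the last-exon event. The first-exon event gave 37.8, 47.7 and 44.8 FPKM in wild type and 42.2, 48.5 and 43.3 FPKM in the mutants, and there the genotypes overlapped, with a log2 fold change of 0.04. psmd2, the other large base subunit, was not analysed here.

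The ubiquitin receptor gene psmd4a stood at 40.1, 39.9 and 41.7 FPKM in wild type and 39.2, 37.5 and 38.4 FPKM in the mutants. psmd11b, a lid gene, stood at 18.8, 19.2 and 19.3 FPKM in wild type and 18.1, 18.3 and 17.7 FPKM in the mutants. Both had mutant values wholly below the wild-type values, by 0.08 on the log2 scale, and limma adjusted p-values of 0.613 and 0.652. psmd7, the inactive partner of the deubiquitinase, stood at 41.6, 44.7 and 42.7 FPKM in wild type and 45.2, 44.2 and 45.8 FPKM in the mutants, with a log2 fold change of 0.07. psmd14 encodes the deubiquitinase that removes the chain and was the most variable 19S gene, with a coefficient of variation of 22.9%. It stood at 17.6, 27.8 and 16.9 FPKM in wild type and at 16.1, 24.8 and 21.3 FPKM in the mutants. Replicate 2 was the highest library of each genotype, the log2 fold change was 0.01, and its 95% interval ran from -0.49 to 0.52. The lid and receptor genes psmd6, psmd8, psmd12, psmd13 and psmd4b had mean levels of 70.1, 56.6, 39.4, 45.7 and 34.7 FPKM and log2 fold changes from -0.05 to -0.01. psmd3 and a second gene ID named psmd4a had no total. The authors' deposited table holds 2 tested transcripts of psmd3, so its missing total does not show that the gene was silent.

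The proteasome has duplicated genes in zebrafish, and for 4 of the 5 pairs both copies were listed in all libraries. psma6a held 60.7%, 61.6% and 61.8% of the pair's FPKM in wild type and 61.5%, 56.8% and 58.3% in the mutants. psma6a alone had a log2 fold change of -0.16 (SE 0.09, limma adjusted p = 0.433), with mutant replicate 2 lowest at 34.5 FPKM. psmc1a held 58.3%, 57.8% and 54.0% in wild type and 57.2%, 56.5% and 60.9% in the mutants. For psmc1b the first-exon event stood at 6.72 FPKM in wild-type replicate 1 and between 29.0 and 30.7 FPKM in the other libraries, and from first-exon events alone its log2 fold change was 0.67 (SE 0.51) in place of 0.05. psmd4a held 53.0%, 54.6% and 53.5% in wild type and 52.5%, 53.9% and 51.7% in the mutants. psmd11a held 44.8%, 44.5% and 41.8% in wild type and 40.5%, 40.4% and 47.2% in the mutants. In each of these 4 pairs both copies contributed much of the total, and the genotypes overlapped in the share. Reads from the near-identical stretches of such copies may have been split between them by the authors' counting.

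Summed over both copies, the psma6, psmc1 and psmd4 pairs had means of 66.7, 69.8 and 74.2 FPKM. Their a copies alone had means of 40.1, 40.1 and 39.5 FPKM. Those already lay above some single-copy subunits, such as psmb6 at 36.5 FPKM and psmd14 at 20.7 FPKM. psma6a plus psma6b gave 69.0 ± 4.10 FPKM in wild type and 64.4 ± 3.56 FPKM in the mutants (SD, n = 3), beside a median of 68.0 FPKM over the 13 core subunits counted that way. psmc1a plus psmc1b gave 67.4 ± 4.06 and 72.2 ± 1.79 FPKM, and psmd4a plus psmd4b 75.5 ± 2.42 and 72.9 ± 2.83 FPKM. psmd11a plus psmd11b stayed lower, at 33.9 ± 0.675 and 31.6 ± 1.71 FPKM, though above psmd14. The median over 15 subunits of the 19S particle was 55.7 FPKM. Both medians include the summed pairs themselves. The spread of mean levels from highest to lowest core subunit was 3.61-fold gene by gene and 2.90-fold with the psma6 copies summed. Summing narrows it by construction, since psma6b was the lowest core gene.

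**Figure D2:**
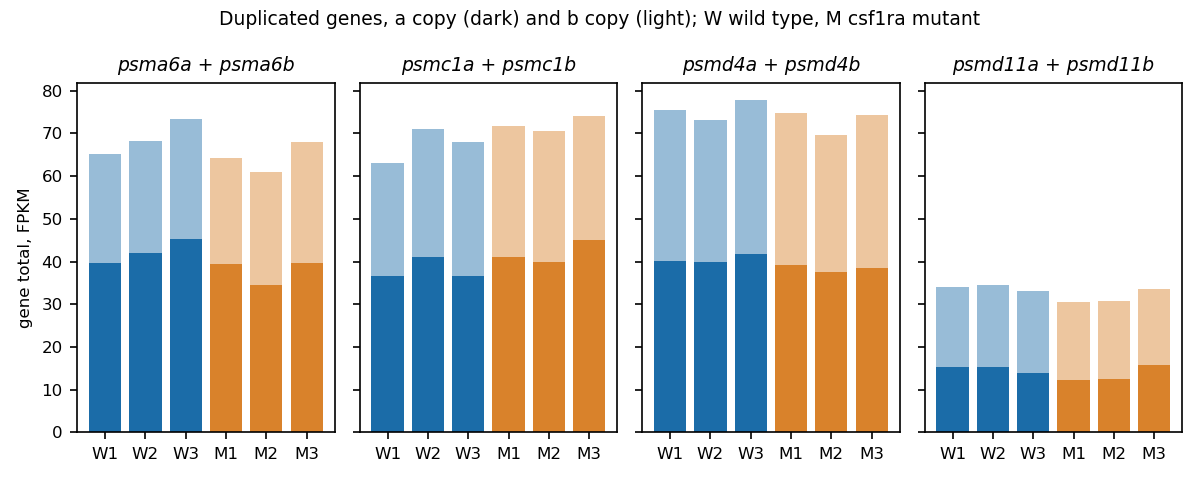
Gene totals in FPKM of 4 duplicated pairs, stacked as the a copy (dark) and the b copy (light), 1 bar per library (W wild type, M csf1ra mutant, with the replicate number). The sums of the psma6, psmc1 and psmd4 pairs lie between 60.9 and 77.9 FPKM, and those of the psmd11 pair between 30.4 and 34.6 FPKM.

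The activators differed most in level. psme3, the nuclear activator, stood at 26.6, 28.3 and 24.0 FPKM in wild type and 27.1, 26.4 and 25.8 FPKM in the mutants. psme1 and psme2, which form the interferon-inducible activator of mammals, had means of 2.97 and 1.94 FPKM. psme2 stood at 1.53, 1.51 and 1.97 FPKM in wild type and 2.59, 1.84 and 2.16 FPKM in the mutants, with overlap at mutant replicate 2 and a log2 fold change of 0.26 (SE 0.16, 95% interval -0.11 to 0.62, limma adjusted p = 0.479). psme4a, a copy of the large activator gene, was not listed in wild-type replicate 1, stood at 1.43 and 0.989 FPKM in wild-type replicates 2 and 3, and at 1.20, 1.74 and 1.42 FPKM in the mutants. Its log2 fold change of 0.53, the largest positive value of the members, took the unlisted value as 0, and its 95% interval ran from -0.23 to 1.29 (limma adjusted p = 0.482). The value was 0.15 without wild-type replicate 1 and 1.48 with a pseudocount of 0.1. psme4b, the other copy, was higher, at 8.42, 7.10 and 8.27 FPKM in wild type and 7.25, 5.87 and 7.07 FPKM in the mutants (log2 fold change -0.21, SE 0.12, limma adjusted p = 0.433).

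Skipped exons were kept if both forms were listed in some library and their sum reached 1 FPKM in every library. This left psme4b and psmb7, 1 exon each, and the psme4b exon was chosen for description after its values were seen. The psmb7 exon, of 27 bases, was included in 1.21% ± 2.01 of both forms in wild type and 1.99% ± 2.13 in the mutants (SD, n = 3), with overlapping genotypes and a two-sided exact permutation p of 0.7. The psme4b exon did not overlap between the genotypes in its usage. It is 54 bases long, a multiple of 3, and lies on the plus strand at GRCz10 chr12:23879331-23879384. The form with the exon stood at 0.858 and 1.37 FPKM in wild-type replicates 1 and 2, was not listed in replicate 3, and stood at 2.79, 2.45 and 3.09 FPKM in the mutants. The form without it stood at 7.56, 5.73 and 8.27 FPKM in wild type and 4.45, 3.42 and 3.98 FPKM in the mutants. The form with the exon thus made up 10.2%, 19.3% and 0% of both forms in wild type and 38.6%, 41.7% and 43.7% in the mutants, means of 9.83% ± 9.65 and 41.3% ± 2.59 (SD, n = 3). All mutant libraries lay above all wild-type libraries, and the two-sided exact permutation p was 0.1, the smallest that 20 splits can give. Of 3145 skipped exons in the series with both forms measured, 8.17% had no overlap between genotypes and 4.2% had every mutant library higher.

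The last-exon event of psme4b stood at 7.66, 5.91 and 8.27 FPKM in wild type and 4.69, 3.52 and 4.23 FPKM in the mutants, whereas the first-exon event equalled the gene totals. These last-exon values ran close to those of the form without the exon in every library, so they are no separate observation. From last-exon events alone the log2 fold change was -0.68 (SE 0.15), with a limma adjusted p of 0.0666, the smallest of any member in that fit and above the threshold. Of the genes with values, 37 had a single first exon and a single last exon at 1 FPKM or more. The others included psma6b, with further last exons in some libraries, at up to 5.65 FPKM in mutant replicate 2. psmc3 had a second first exon, at 6.03 and 9.40 FPKM in wild-type replicates 2 and 3 and 5.34 FPKM in mutant replicate 2. psmb7 had a retained intron listed in mutant replicates 1 and 2 alone, at 5.48% and 7.87% of both forms (two-sided exact permutation p = 0.4), and psmc5 had one at no more than 1.40% in any library. Both overlapped between genotypes, against 8.98% of 924 retained introns in the series that did not.

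**Figure D3:**
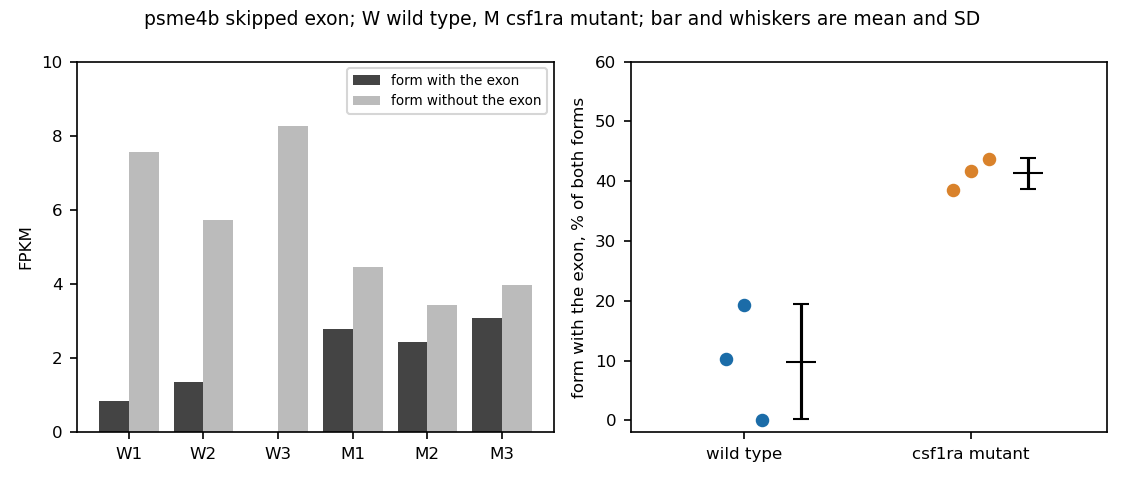
Left, FPKM of the psme4b forms with (dark) and without (light) the 54-base exon in each library (W wild type, M csf1ra mutant, with the replicate number). Right, the share of the form with the exon in percent, 1 point per library with mean and SD, at 0% to 19.3% in wild type and 38.6% to 43.7% in the mutants.

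The 6 assembly chaperone genes among the members stood below the subunits they assemble. These 6 genes had means from 6.42 FPKM for psmd10 to 15.2 FPKM for psmg3, and a median coefficient of variation of 12.9%. The ranking does not extend to pomp, which matures the core but falls outside the rule. Its means were 61.1 FPKM in wild type and 60.4 FPKM in the mutants. It lay above core genes such as psmb6 and psmb7, and below others such as psma3 and psmb4. psmg1 and psmg2 encode partners that start the alpha ring. psmg2 stood at 9.23, 12.9 and 8.41 FPKM in wild type and 5.29, 5.86 and 8.10 FPKM in the mutants, means of 10.2 ± 2.41 and 6.42 ± 1.48 FPKM (SD, n = 3). Every mutant library lay below every wild-type library, but mutant replicate 3 came close to wild-type replicate 3. The log2 fold change was -0.59 (SE 0.19, 95% interval -1.03 to -0.15), with an unadjusted p of 0.0154 and a limma adjusted p of 0.188. Without mutant replicate 3 the smallest adjusted p of any member was 0.0958.

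psmg1 stood at 11.5, 12.5 and 12.1 FPKM in wild type and 11.3, 11.0 and 9.85 FPKM in the mutants, again with no overlap (log2 fold change -0.15, SE 0.09, limma adjusted p = 0.456). psmg3, which acts in a second chaperone pair, had means of 15.3 ± 1.48 and 15.2 ± 2.38 FPKM (SD, n = 3). Its partner gene appears in capitals as PSMG4, outside the rule, at 13.9, 17.1 and 15.8 FPKM in wild type and 17.2, 15.0 and 20.1 FPKM in the mutants. The chaperone genes of the 19S base, psmd5, psmd9 and psmd10, had log2 fold changes of -0.14, -0.18 and 0.13 with overlapping genotypes. psmf1, which encodes the core-binding inhibitor, stood at 6.03, 5.86 and 6.21 FPKM in wild type and 5.51, 5.29 and 4.46 FPKM in the mutants. It had no overlap either, with a log2 fold change of -0.21 (SE 0.11, 95% interval -0.47 to 0.04, limma adjusted p = 0.401). psmc3ip stood between 2.33 and 3.14 FPKM in all libraries.

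Across the whole set, limma called 0 of the 45 tested members at an adjusted p under 0.05, against 2.42% of all genes tested (1.21% higher and 1.2% lower in the mutants). At an unadjusted p under 0.05 there were 2 members, psmg2 and psmd1, against 15.9% of all genes. The genotypes did not overlap for 6 members, all lower in the mutants (psmg1, psmg2, psmf1, psmd1, psmd11b and psmd4a), which is 13.3% of those tested, against 10.2% of all genes lower and 22.3% in either direction. The median log2 fold change over the members was -0.03 and the median size of a change 0.076, against 0.016 and 0.146 over all genes. A negative value was seen for 30 of 45 members, 66.7%, against 46.8% of all genes. That count depended on the setting and on single libraries: it was 24 without mutant replicate 2 and 34 with median-ratio scaling. A p that misses the threshold does not show that values did not differ, but the intervals bound the size. For 39 of the 45 members, 86.7%, the 95% interval lay within 0.5 on the log2 scale in both directions. That is a 1.41-fold change of FPKM + 1. In FPKM the bound is wider for members of low level, such as psmc3ip and psmf1. The share with such an interval was 51.7% over all genes tested, which are on the whole lower expressed. Such intervals were held by 7 of 7 tested CCT genes, 5 of 6 COP9 genes, 12 of 14 eIF3 genes and 53 of 66 ribosomal protein genes.

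**Figure D4:**
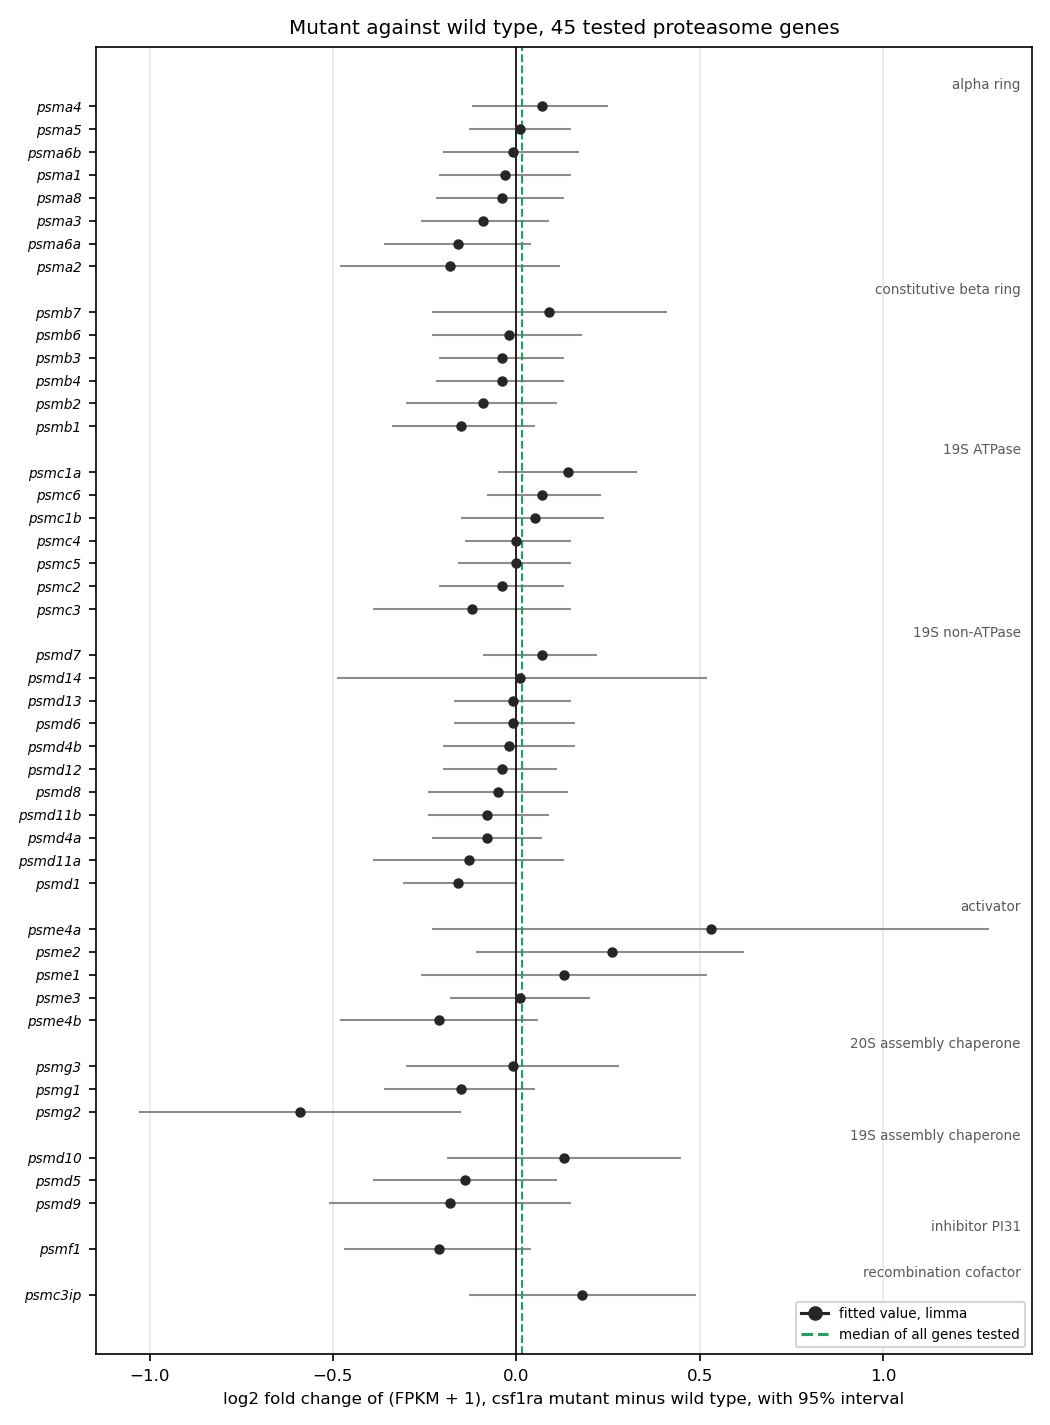
Log2 fold change of FPKM + 1, csf1ra mutant minus wild type, for each of the 45 tested members with its 95% interval from limma, grouped by role. The dashed line marks the median of all genes tested, 0.016, and the interval of psmg2, from -1.03 to -0.15, lies farthest below 0.

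Core and regulatory genes were then set side by side. The 14 tested core genes had a median log2 fold change of -0.042, with 3 positive and 11 negative values between -0.18 and 0.09. The 23 tested regulatory genes had a median of -0.005, with 10 positive and 13 negative values between -0.21 and 0.53, and the 18 genes of the 19S particle among them a median of -0.014. The core median minus the regulatory median was -0.036. Taken library by library, relative to the wild-type mean, that difference came to -0.051, -0.005 and 0.055 for wild type and to -0.032, -0.024 and 0.006 for the mutants. All mutant values lay inside the wild-type range. Core genes made up 50.8%, 50.8% and 51.7% of the summed FPKM of both classes in wild type and 50.9%, 49.9% and 50.9% in the mutants.

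The classes shared their lower libraries by summed FPKM. Their highest libraries differed, wild-type replicate 3 for the core and wild-type replicate 2 for the regulatory genes. Core genes together gave 839, 897 and 917 FPKM in wild type and 868, 814 and 880 FPKM in the mutants, and regulatory genes 812, 870 and 858 FPKM in wild type and 837, 817 and 849 FPKM in the mutants. Wild-type replicate 1 and mutant replicate 2 were the lower libraries for both classes. They were also the lowest over the tested genes listed in all 6 libraries, at sums of 349100 and 349600 FPKM. The other libraries ran there from 354700 FPKM to 368300 FPKM in wild-type replicate 3, so the pattern is not particular to the proteasome. Mutant replicate 2 was the lowest library for 7 of 14 core genes and 7 of 22 regulatory genes. Wild-type replicate 3 was the highest for 6 and 8. No such count was made over all genes. Leaving out wild-type replicate 1 gave a core median log2 fold change of -0.093, and leaving out mutant replicate 2 gave -0.013.

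**Figure D5:**
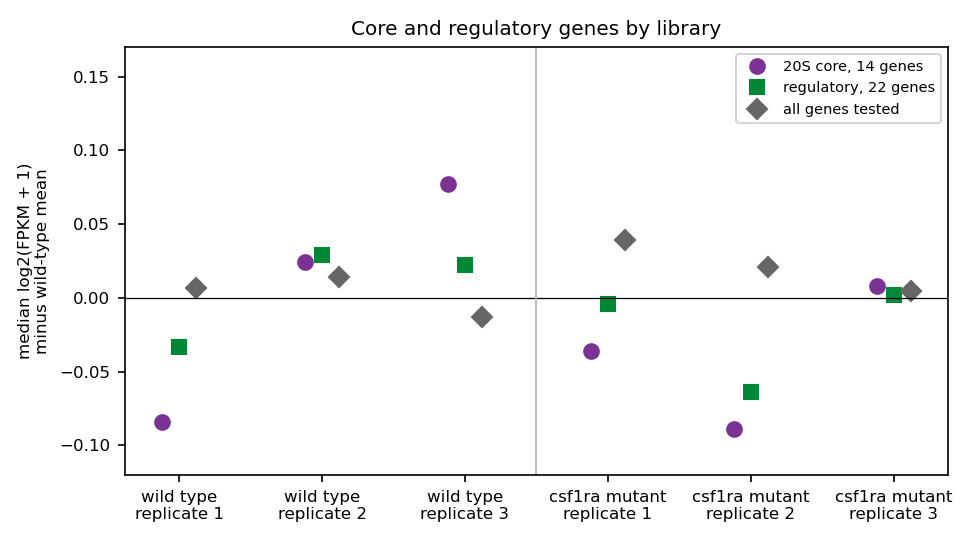
Median over 14 core genes (circles), 22 regulatory genes listed in all libraries (squares) and all genes tested (diamonds) of log2(FPKM + 1) minus its wild-type mean, in each library. Core medians span -0.084 to 0.077 in wild type and -0.089 to 0.008 in the mutants, so the genotypes overlap.

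The authors' deposited table tests transcripts and was read for its adjusted p-values alone. It holds a tested transcript for 48 members, and 11 of them, 22.9%, had one at an adjusted p under 0.05, against 30.1% of all 18800 genes tested there. Counted by transcript, it was 11 of 67, 16.4%, against 21.4%. The 11 were psma3 and psmb7 of 16 core genes tested there, psmc1a, psmc6, psmd1, psmd7, psmd11a and psmd11b of 24 regulatory genes, psmd5, psmg1 and psmf1. The smallest adjusted p-values of members in the authors' deposited table were 0.000466 for psmc1a and psmd1, and 0.000892 for psmd11b. The value 0.000466 goes with the smallest p the authors recorded, 5e-05, and genes outside the proteasome such as gch2 share it. The other tested transcripts of psmd1 had adjusted p-values of 0.639 and 0.438 there, and that of psmd11b 0.278. psmg2 had an adjusted p of 0.34 in the authors' deposited table, and the 3 tested transcripts of psme4b had 0.289, 0.524 and 0.947.

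Genes that work with the proteasome were described in the same way. Of 25 symbols of cofactors and regulators, 21 had a value and were tested. Limma called 0 of them, against 2.42% of all genes, and 3 had an unadjusted p under 0.05, against 15.9%. Their median log2 fold change was -0.069. Without overlap, 4 were lower in the mutants (txnl1, akirin2, ufd1l and vcp) and 3 higher (nfe2l1a, zfand5a and rad23ab). Over all genes tested, 10.2% were lower and 12.1% higher without overlap. nfe2l1a encodes a copy of the transcription factor that in mammals raises proteasome genes when degradation is impaired. It was unlisted in wild-type replicates 1 and 2, stood at 0.939 FPKM in wild-type replicate 3 and at 2.44, 1.68 and 1.06 FPKM in the mutants. It passed the filter through the mutant libraries alone (log2 fold change 1.1, SE 0.32, limma adjusted p = 0.154, with unlisted values taken as 0). Its other copy nfe2l1b was higher, at 7.13, 6.17 and 5.48 FPKM in wild type and 6.30, 5.67 and 4.58 FPKM in the mutants, with overlap. zfand5a, whose mammalian counterpart activates the 26S particle, stood at 28.7, 27.2 and 26.4 FPKM in wild type and 35.5, 33.6 and 29.9 FPKM in the mutants, without overlap (log2 fold change 0.25, SE 0.08, limma adjusted p = 0.202). The copy zfand5b had means of 36.7 FPKM in wild type and 34.8 FPKM in the mutants, with overlap (log2 fold change -0.07). akirin2, which in human cells brings proteasomes into the nucleus, stood at 31.4, 30.9 and 30.5 FPKM in wild type. In the mutants it stood at 27.8, 27.9 and 27.8 FPKM, without overlap (log2 fold change -0.15, SE 0.06, limma adjusted p = 0.317). pomp, which matures the core, and vcp, the unfoldase that extracts substrates, had log2 fold changes of -0.01 and -0.06, with overlap for pomp alone.

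Other large complexes gave a scale for these values. The 7 tested chaperonin CCT genes had a median mean level of 121 FPKM and a 1.68-fold spread, and limma called 0, with 2 at an unadjusted p under 0.05. The 6 genes of the COP9 signalosome, a relative of the 19S lid, had a median of 27.6 FPKM and a 1.31-fold spread, with 0 called and 1 at an unadjusted p under 0.05. That gene was cops2, chosen after its values were seen, at 35.6, 37.5 and 37.4 FPKM in wild type and 29.6, 29.3 and 24.7 FPKM in the mutants (log2 fold change -0.40, SE 0.09, limma adjusted p = 0.0703). The median log2 fold changes were -0.028 for CCT, -0.057 for COP9, 0.031 for 14 tested eIF3 genes, 0.047 for 66 ribosomal protein genes and -0.055 for 8 genes of ubiquitin supply. Of those 14 eIF3 genes and 8 ubiquitin genes limma called 0, with 1 and 0 at an unadjusted p under 0.05, and of the ribosomal protein genes it called 1, higher in the mutants, with 5 at an unadjusted p under 0.05. Over all genes tested, 2.42% were called and 15.9% had an unadjusted p under 0.05.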

How the data were processed

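RNA was measured in whole embryos, 3 libraries per genotype, made from 30 embryos, a number the labels leave unclear as being for each group or for each sample. Per the submitters' processing notes, the reads were handled with Trimmomatic 0.30, HISAT2 2.0.1, SAMtools 0.1.18, Cufflinks 2.2.1, HTSeq 0.6.1 and DESeq, and the genome build was GRCz10. The roles and settings of these tools, and the read totals, were not given in the sources used here. Per the file headers, the authors deposited FPKM for transcript events (first exons, last exons, skipped exons, retained introns) of each library, and events at 0 are not listed. The authors' own p-value and adjusted p-value for each transcript come from a table of the whole series. Its 2 columns of per-genotype values do not say which genotype they hold and, with the fold column, were not used.

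A gene's total was the larger of its summed first-exon and summed last-exon FPKM, which can understate a gene whose structures were filed under another ID. Totals not listed entered the fit as 0. The trend and robust fit of limma 3.58.1 (R 4.3.3) was run on log2(FPKM + 1) with a term for genotype. It took genes that reached 1 FPKM in 3 or more libraries, tests were two-sided, and p-values were adjusted by Benjamini-Hochberg over 15475 genes, with a threshold of 0.05. Fold changes are on this log2(FPKM + 1) scale and so are too small for genes of low level. Summaries and figures used Python 3.11.15, pandas 2.3.3, NumPy 2.4.6 and Matplotlib 3.10.9.

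The members, lists and tests were chosen with earlier results of these data known. The naming rule took csf1ra, members significant in either test, psmb8 to psmb13, duplicated pairs, members listed in fewer than 6 libraries, and the extremes of level and change in each class. Other members, cofactors and comparison genes were named to account for the lists. RefSeq names matched 52 of 53 member symbols. Alternatives were quantile and median-ratio scaling, no filter or 5 FPKM, pseudocounts of 0.1 and 0.5, limma without trend and robust options, a replicate block, totals from first exons or from last exons, restriction to genes with values in all 6 libraries, and leaving out each library. Reading psmb5 from the ID at its locus was added after seeing the data.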

Additional observations from a re-analysis of the deposited data

How the results depend on the processing

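Under 17 other settings, and with psmb5 added, limma called 0 proteasome genes each time. Over all genes these settings called 88 to 397, and the main fit called 2.42% of 15475. Beside so small a share, 0 calls among 41 to 46 members say little. Between 0 and 3 members had an unadjusted p under 0.05, where the share over all genes was 15.9% in the main fit. The smallest limma adjusted p of any member ran from 0.0666 with last-exon events alone to 0.428 without mutant replicate 1. The core median log2 fold change stayed between -0.093 and -0.013, the regulatory median between -0.034 and 0.009, and core minus regulatory between -0.068 and -0.013. Of 318 alternative values of 19 named members, 8 changed sign, all of them of genes not called. The count over all genes was less steady. It was 374 (188 higher, 186 lower), 232 with genes listed in all 6 libraries alone, and 88 to 397 when a library was left out. Leaving out wild-type replicate 1, 2 or 3 gave 68, 61 or 70 higher and 33, 34 or 33 lower calls, and leaving out mutant replicate 1, 2 or 3 gave 27, 20 or 218 higher and 73, 68 or 179 lower calls. Deviations of same-numbered libraries were nearly uncorrelated over all genes tested (-0.0274, 0.00274 and 0.00642). With few libraries and values dominated by noise, these correlations cannot show whether the numbers pair them, and the labels do not say. With the replicate block 115 genes were called, 0 of them proteasome genes. Scaling moved the median of all genes from 0.016 to 0.001 on the log2 scale, and the cause of the shifts in count was not tested.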
